A study of Mus musculus with 8 samples.

Results

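The vacuolar proton pump (V-ATPase), 9 lysosomal cathepsins and the autophagy genes were followed in RNA bound to tagged ribosomes of mouse midbrain dopaminergic neurons after the neurotoxin MPTP. Members were taken by gene name alone: every symbol that begins with Atp6v or Atp6ap, every Atg symbol followed by a digit, 6 further genes (Lamp1, Lamp2, Sqstm1, Becn1, Tfeb, Mcoln1) and the cathepsins Ctsa, Ctsb, Ctsc, Ctsd, Ctsf, Ctsh, Ctsl, Ctso and Ctsz. The rule gave 58 of the 21761 genes in the deposited table, and 54 of them had enough counts to be tested. By role they were 13 subunits of the V1 sector of the pump, 9 of the V0 sector, 3 pump accessory genes, 9 cathepsins, 6 lysosomal membrane or regulatory genes, 7 Atg genes of initiation and lipid transfer and 11 Atg genes of the conjugation systems.

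The V-ATPase uses ATP to pump protons into the lysosome. Its V1 sector lies in the cytosol and splits ATP, its V0 sector lies in the membrane and carries the protons, and the 2 sectors can come apart and rejoin. The acid activates the cathepsins, proteases that break down what autophagy delivers: a membrane grows around cytoplasmic cargo, LC3-type proteins are attached to it by the Atg conjugation enzymes, and the closed autophagosome fuses with a lysosome. Long-lived neurons depend on this route, and several inherited forms of parkinsonism involve lysosomal genes.

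The 4 MPTP libraries came from C57BL/6 mice given MPTP-HCl intraperitoneally each day for 5 days at 30 mg/kg (as free base), and the 4 saline libraries from C57BL/6 mice given saline on the same schedule. RNA of both groups was collected 4 days after the last injection. All libraries come from translating ribosome affinity purification, so both groups carry the ribosome tag; the labels do not name the transgene or the promoter that drives it, nor do they say how many animals went into a library or that replicates are separate animals. The p-values therefore measure the spread between these libraries, which may be technical. In such bulk samples, fewer cells of a type and less RNA per cell cannot be told apart.

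Library totals ranged from 54192354 to 78892061 counts. All 18 dopaminergic markers of the list used passed the filter on low counts, with summed levels of 8492 to 14160 CPM (counts scaled to the size of the library). One library stood apart from its group: saline 3 had 8492 CPM of these markers, where saline 1, 2 and 4 had 13120 to 14160 CPM and the MPTP libraries 9491 to 11240 CPM. For oligodendrocyte markers it had 1920 CPM, where saline 1, 2 and 4 had 902.6 to 1088 CPM and the MPTP libraries 1295 to 1505 CPM. Results are therefore given with and without saline 3.

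No pump, cathepsin or autophagy gene passed the test for a difference between MPTP and saline with all 8 libraries. edgeR's quasi-likelihood test, with Benjamini-Hochberg adjusted p under 0.05 over all 15999 genes tested, called 0 of the 54 tested members and 0.106% of all genes (0.075% higher and 0.0313% lower). DESeq2 also called 0 members and 0.331% of all genes. An unadjusted p under 0.05 was reached by 9 members (4 higher and 5 lower in MPTP), where 8.78% of all tested genes reached it (4.28% higher, 4.5% lower). With DESeq2 it was reached by 9 members and 9.79% of all genes. The lowest adjusted p of a member was 0.392, that of Atg9b. The median log2 fold change of the 54 members was -0.01, beside 0.00 over all genes tested.

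The 95% intervals show how closely each fold change was estimated. They are per gene and not adjusted over the genes tested, so they do not show which changes the adjusted test could call. The median standard error (SE) of a member's log2 fold change was 0.11. For 43 of the 54 members the whole 95% interval lay inside a 1.5-fold change in either direction, and for 6 it reached beyond a 2-fold change. Those 6 were the low genes Atp6v1c2, Atp6ap1l, Atp6v0a4, Ctsc, Ctsh and Atg4a. The plot of fold changes by role shows the V1 subunits on the negative side, the V0 subunits around 0 and most cathepsins on the positive side.

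**Figure D1:**
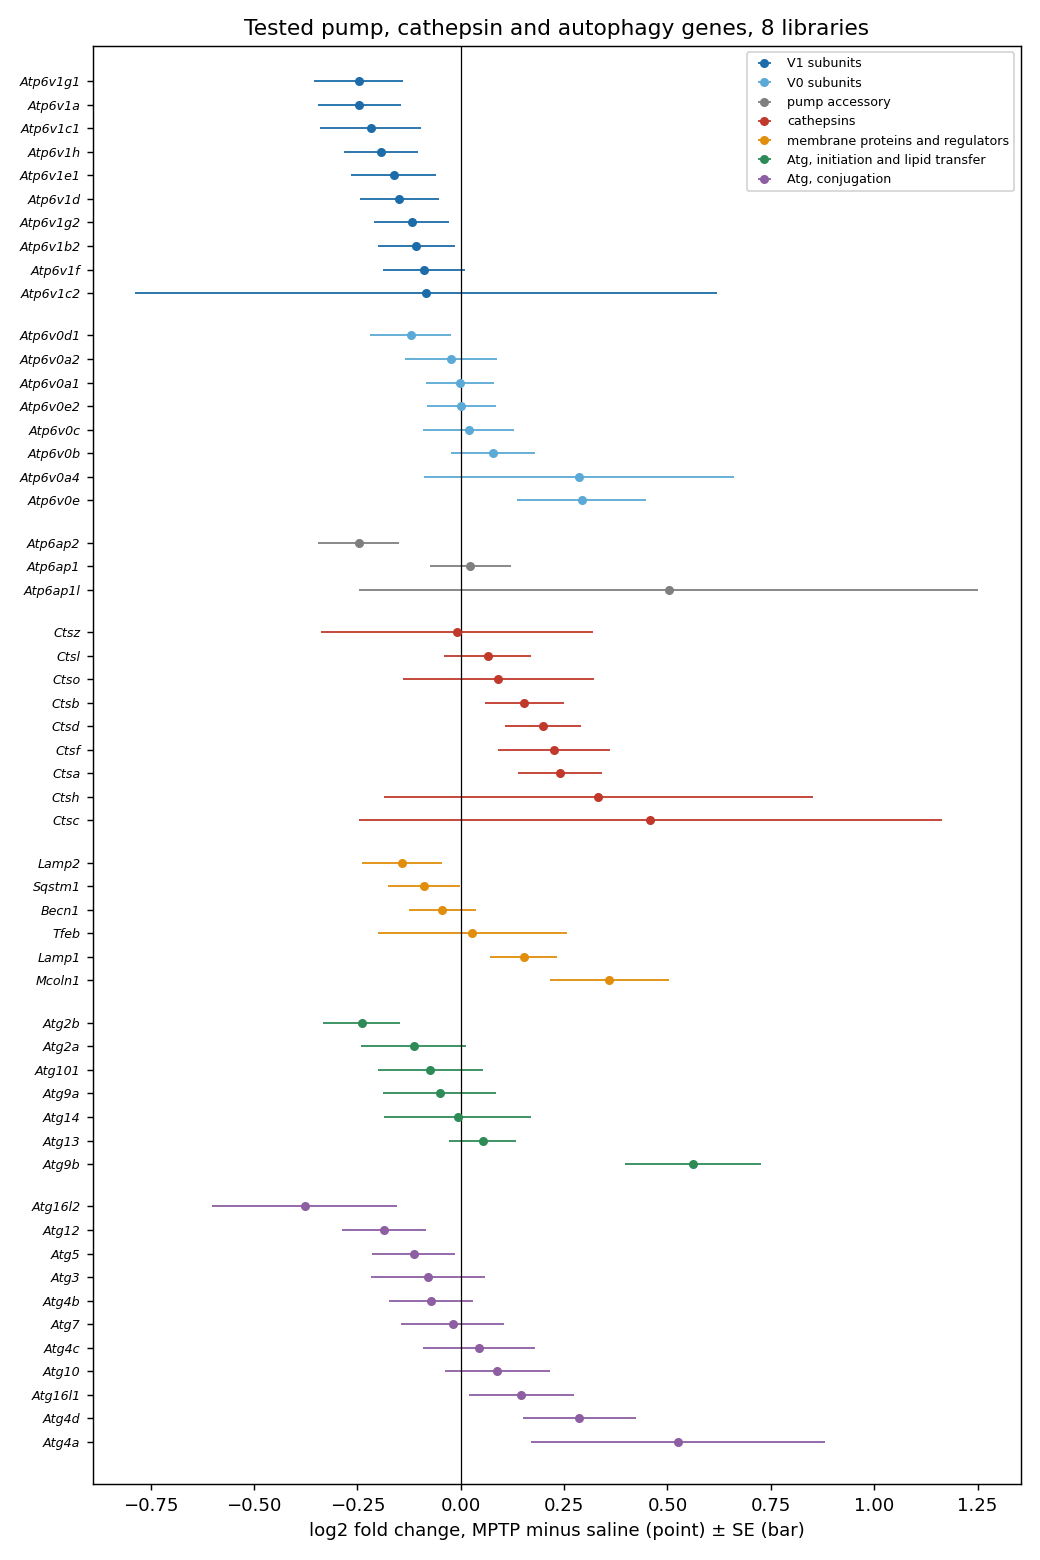
Log2 fold change (MPTP minus saline, point) and its standard error (bar) for the 54 tested genes, 1 row per gene, coloured by role. All 10 tested V1 subunits lie below 0 and 8 of 9 cathepsins above 0, and no gene passed the adjusted threshold.

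The V1 sector had the most uniform direction among the roles. All 10 tested V1 subunits had a log2 fold change below 0, with a median of -0.15, where 49.9% of all genes tested lay below 0; 0 were called and 3 had an unadjusted p under 0.05. The summed V1 level was 2558, 2555, 2766 and 2636 CPM in MPTP 1 to 4 and 3001, 3237, 2550 and 2933 CPM in saline 1 to 4. Saline 3 was the lowest of all 8 libraries, and each of the other saline libraries lay above each MPTP library.

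Atp6v1a, which codes for the catalytic A subunit that binds and splits ATP, was at 380.1, 350.3, 342.0 and 350.0 CPM in MPTP 1 to 4 and at 488, 439, 338 and 420.4 CPM in saline 1 to 4. The MPTP libraries were close together, and saline 3 lay just below all of them. The fitted log2 fold change was -0.24 (SE 0.10, edgeR adjusted p = 0.506). Without saline 3 the groups did not overlap, as in 14.7% of all genes (7.19% higher, 7.55% lower), and it was called lower (log2 fold change -0.34, SE 0.08, edgeR adjusted p = 0.0391). This was the 1 member called without saline 3, where edgeR called 1.84% of all genes (0.853% higher, 0.983% lower), and leaving out any other single library called 0 members. Without saline 1, and with no covariate, the log2 fold change of Atp6v1a was -0.16. With a covariate, the score of non-neuronal markers in each library, Atp6v1a was not called with all libraries (log2 fold change -0.16, edgeR adjusted p = 0.804) or without saline 3 (-0.46, SE 0.13, edgeR adjusted p = 0.218). That score was 2.646 to 3.021 in the MPTP libraries and 2.237 to 2.633 in saline 1, 2 and 4. Without saline 3, a difference by treatment and a difference by marker score therefore cannot be told apart. Atp6v1a lies on chromosome 16 of GRCm38 (44085402 to 44139705, minus strand), and its exons overlap no other gene's exons in GENCODE vM21.

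Atp6v1g1, a G subunit of the stalk that joins the sectors, had 187 ± 17.4 CPM under MPTP and 222 ± 34.2 CPM under saline (SD, n = 4 per group), with a log2 fold change of -0.25 (SE 0.11, edgeR adjusted p = 0.517). Atp6v1h, the regulatory H subunit, was at 80.6, 81.7, 79.2 and 85.4 CPM in MPTP 1 to 4 against 102, 99.1, 78.9 and 94.0 CPM in saline 1 to 4. Here again saline 3 fell below the MPTP libraries and the other saline libraries lay above them. The log2 fold change of Atp6v1h was -0.19 (SE 0.09, edgeR adjusted p = 0.558). Atp6v1c1, the C subunit that holds the stalks together, had a log2 fold change of -0.22 (adjusted p = 0.634), and its 175 to 246 CPM in MPTP overlapped the 199.8 to 299 CPM in saline. Leaving out saline 2, its highest library, gave -0.085 for Atp6v1c1 and -0.15 for Atp6v1g1. Atp6v1b2, a B subunit, had -0.11 and Atp6v1g2, the neuron-enriched G subunit, -0.12.

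The V0 sector did not share this direction. Of its 8 tested subunits 5 were above 0 and 3 below, with a median log2 fold change of 0.01, and 0 were called or had an unadjusted p under 0.05. Whether V1 and V0 differ in response was not tested. Atp6v0c, the proteolipid that forms the proton-carrying ring, was at 676, 935, 701 and 834 CPM in MPTP 1 to 4 and at 804, 731, 695 and 872.5 CPM in saline 1 to 4. The 2 groups cover the same range, and the log2 fold change was 0.02 (95% interval -0.21 to 0.25). Its sign turned to -0.03 without saline 3.

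The V0 subunit with the smallest p was Atp6v0e, the less abundant of the e subunit genes, at 16.0 ± 1.88 CPM under MPTP and 13.1 ± 2.80 CPM under saline (SD, n = 4 per group). Its log2 fold change was 0.29 (SE 0.16, edgeR adjusted p = 0.608), and without saline 3 (16.9 CPM) its groups did not overlap and it was 0.44. Atp6v0d1, the d subunit that couples the rotor to the ring, had a log2 fold change of -0.12. Atp6v0b, a second proteolipid of the ring, had 0.08. Atp6v0a4, an a subunit known from kidney, was near 1.53 CPM in saline and had 0.29 with a wide interval (-0.51 to 1.08).

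**Figure D2:**
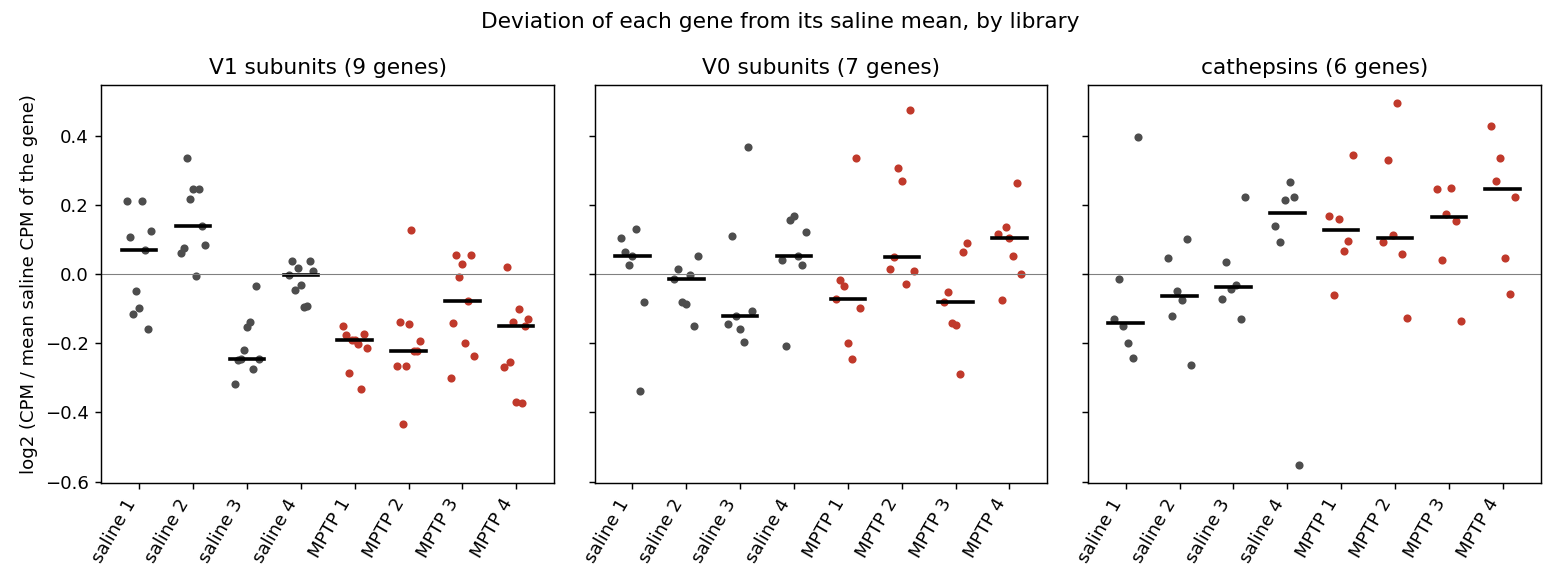
Log2 ratio of each gene's CPM to its mean in saline, for the 9 V1, 7 V0 and 6 cathepsin genes with a mean of at least 5 CPM. Points are genes, black lines are the library medians, saline is grey and MPTP red. The V1 median of saline 3 (-0.25) lies with those of MPTP (-0.22 to -0.08), and the cathepsin median of saline 4 (0.18) lies with those of MPTP (0.10 to 0.25).

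Of the accessory genes, Atp6ap2, which codes for the (pro)renin receptor needed for pump assembly, resembled V1. It was at 71.7, 83.6, 78.9 and 77.4 CPM in MPTP 1 to 4 and at 103, 103, 79.0 and 85.0 CPM in saline 1 to 4. Saline 3 lay inside the MPTP range, and the others lay above it. The log2 fold change was -0.25 (SE 0.10, edgeR adjusted p = 0.492) with all libraries and -0.32 (adjusted p = 0.0879) without saline 3. Atp6ap1, a glycoprotein subunit of the pump in the membrane, had 222 ± 29.8 CPM under MPTP and 219 ± 17.0 CPM under saline (SD, n = 4 per group), a log2 fold change of 0.02. Atp6ap1l, its relative, had 6 to 22 counts per library.

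The libraries that were low in V1 were also low in dopaminergic markers. The 18 dopaminergic markers had 15 log2 fold changes below 0 with a median of -0.15, and 0 were called. Astrocyte markers had 14 of 14 above 0 (median 0.24), oligodendrocyte markers 14 of 15 (median 0.22) and oligodendrocyte precursor markers 6 of 8 (median 0.16), with 0 called in each list. The smallest p in these lists were those of Kcnj6 (-0.55) and Ddc (-0.54), of Clu (0.38) and Slc1a3 (0.46), of Ugt8a (0.28) and Mal (0.37), and of C1ql1 (0.30) and Gpr17 (0.34; log2 fold changes in the same order of lists). Without saline 3 these medians were -0.27, 0.47, 0.47 and 0.39 in the same order, and that of V1 was -0.21. edgeR then called 4 dopaminergic markers lower and 3 astrocyte, 6 oligodendrocyte and 2 microglia markers higher. With the non-neuronal marker score as a covariate and all 8 libraries, the 10 V1 subunits were below 0, with a median of -0.09 (-0.155 without the covariate). The dopaminergic markers then had a median of 0.01. With the covariate and without saline 3, values were -0.46 for Atp6v1a, -0.31 for Atp6v1g1, -0.28 for Atp6v1h, 0.08 for Atp6v1c1 and 0.11 for Atp6v1g2. The part of such markers in the V1 values was not tested.

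Several pump subunits come as alternative genes. Among the genes taken by name, a single gene held most of the level for the B, C, E, d, a and e subunits, whereas the G subunit was split. Levels between genes are compared here as CPM per kilobase of exon in saline. The B subunit was read from Atp6v1b2 (278 ± 29.9 CPM per kilobase, SD, n = 4), whereas Atp6v1b1, known from kidney and inner ear, had 0 to 7 counts in any library. Likewise Atp6v1c1 made up at least 99.1% of the C subunit level per kilobase and Atp6v1e1 at least 99.96% of the E subunit level in each library. Atp6v1e2, known from testis, had 0 to 5 counts, Atp6v1g3 0 to 9 counts and Atp6v0d2, known from osteoclasts and kidney, 0 to 41 counts. These 4 low genes were not tested.

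Atp6v1g2 held 60.3 ± 3.56% of the G subunit level per kilobase in saline and 62.3 ± 1.53% in MPTP (SD, n = 4 per group), with Atp6v1g1 supplying nearly all of the rest. Atp6v0e2, the brain-enriched e subunit, held 97.8 ± 0.553% in saline and 97.3 ± 0.393% in MPTP (SD, n = 4 per group). The a subunit shares cover only the genes taken by name (Atp6v0a1, Atp6v0a2 and Atp6v0a4), and any a subunit gene under another symbol was left out. Among these, Atp6v0a1, the synaptic form, held 92.9 ± 0.975% in saline and 92.8 ± 0.720% in MPTP, and Atp6v0a2, the Golgi form, 6.41 ± 0.860% and 6.30 ± 0.446% (SD, n = 4 per group). Each of these shares differed between the groups by less than its SD in saline.

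**Figure D3:**
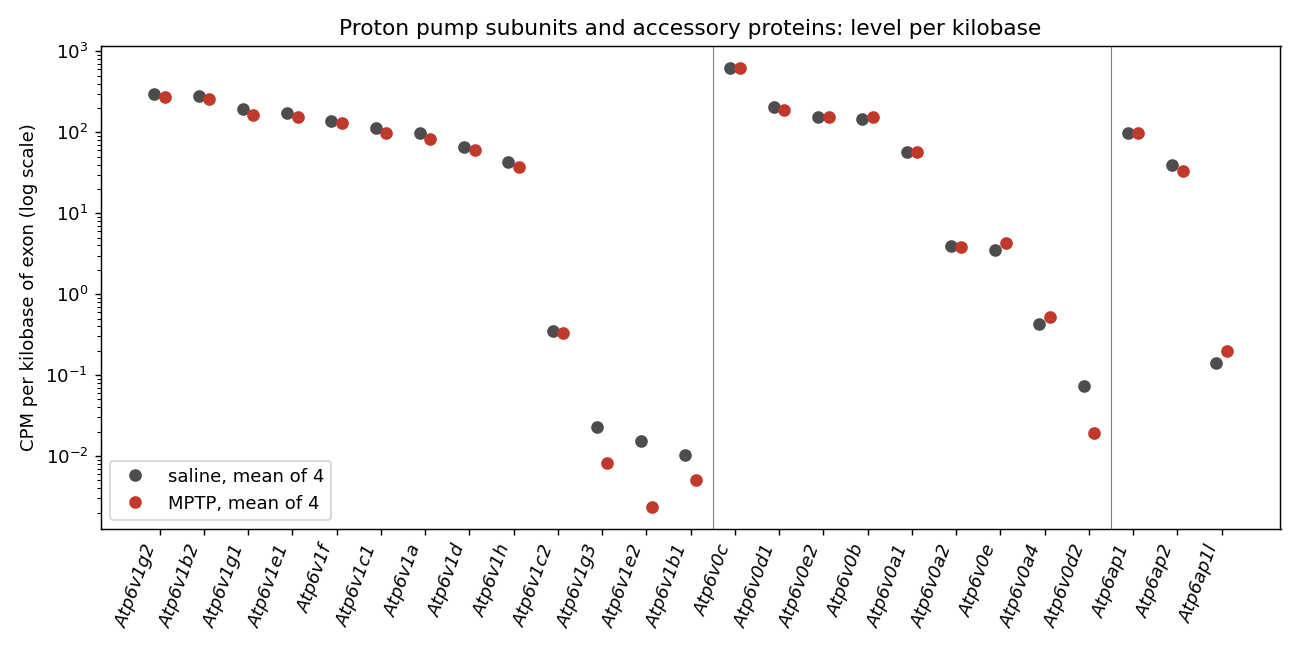
Level per kilobase of exon (log axis) of the 13 V1, 9 V0 and 3 accessory genes, as the mean of 4 saline (grey) and 4 MPTP (red) libraries. Atp6v0c is the highest in saline at 617 CPM per kilobase, and the lowest genes rest on 0 to 41 counts per library, so their positions are imprecise.

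Within the V1 sector the saline level per kilobase ran from Atp6v1g2 (296) and Atp6v1b2 (278) through Atp6v1g1 (195), Atp6v1e1 (173), Atp6v1f (138.5), Atp6v1c1 (114) and Atp6v1a (99.2) to Atp6v1d (66.1) and Atp6v1h (42.9), with Atp6v1c2 (0.354) the highest of the low genes. In V0 it ran from Atp6v0c (617) through Atp6v0d1 (203), Atp6v0e2 (156) and Atp6v0b (145) to Atp6v0a1 (56.7), with Atp6v0a2 (3.89), Atp6v0e (3.52) and Atp6v0a4 (0.429) far lower. The SD was 25.5 for Atp6v1g2 and 29.9 for Atp6v1b2, so these neighbours did not differ beyond their spread. The same holds for Atp6v1c1 (SD 20.9) and Atp6v1a (SD 14.6), and for Atp6v0e2 (SD 11.8) and Atp6v0b (SD 12.7). The plot of levels per kilobase shows saline and MPTP nearly on top of each other for each abundant subunit.

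The cathepsins leaned the other way from V1. Of the 9 tested, 8 had a log2 fold change above 0, with a median of 0.20, where 50.1% of all genes lay above 0; 0 were called and 2 had an unadjusted p under 0.05. The summed level was 566.7, 660.0, 595.3 and 663.6 CPM in MPTP 1 to 4 and 527.7, 527.2, 554.4 and 608.3 CPM in saline 1 to 4. Saline 4 lay inside the MPTP range. Without saline 3, 9 of 9 were above 0 with a median of 0.19 and 0 had an unadjusted p under 0.05. With the covariate and all 8 libraries 7 were above 0 and 2 below, with a median of 0.14.

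Ctsa, a carboxypeptidase that also protects other lysosomal enzymes, was at 42.2, 40.2, 44.6 and 50.7 CPM in MPTP 1 to 4 and at 34.4, 38.9, 35.8 and 41.4 CPM in saline 1 to 4. The groups overlapped only through MPTP 2 and saline 4. For Ctsa the log2 fold change was 0.24 (SE 0.10, edgeR adjusted p = 0.508). Ctsd, the main aspartyl protease of lysosomes, was at 143, 139, 144.5 and 162 CPM in MPTP 1 to 4 and at 115, 124, 124 and 149 CPM in saline 1 to 4, again with saline 4 inside the MPTP range. For Ctsd the log2 fold change was 0.20 (SE 0.09, edgeR adjusted p = 0.554).

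Ctsb, the cysteine protease with the highest CPM of the 9, had 349 ± 44.2 CPM under MPTP and 314 ± 19.5 CPM under saline (SD, n = 4 per group), a log2 fold change of 0.15 (adjusted p = 0.669). Per kilobase, Ctsb (66.2 ± 4.10) and Ctsd (60.2 ± 6.72) were close in saline, and both were well above Ctsa (10.2 ± 0.860) and Ctsf (9.12 ± 1.30; SD, n = 4 each). Ctsf, a cysteine protease in which inherited defects cause a neuronal storage disease, had a log2 fold change of 0.23 (adjusted p = 0.654). Without MPTP 2 the values were 0.125 for Ctsf and 0.09 for Ctsb. Ctsl and Ctso had 0.06 and 0.09. Ctsc and Ctsh, known mainly from immune cells, were near 1 CPM, and Ctsc (5 to 152 counts) had 0.46 with an interval of -1.04 to 1.95. Ctsz, also known from phagocytes, had -0.01.

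Exon overlap limits some of these counts, because the kit does not mark strand and the counting rule is not given. GENCODE vM21 exons of another gene cover 38.0% of the exon bases of Ctsd (chromosome 7, 142375911 to 142388038, minus strand; a protein-coding read-through model on the same strand), 22.3% of Ctsa (chromosome 2, 164832873 to 164841032, plus strand; Neurl2 and Pltp on the other strand), 34.6% of Ctsl and 16.3% of Ctsb. Reads of such stretches cannot be told apart.

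Microglia also express cathepsins, and their markers were low. The 18 microglia markers summed to 69.35 to 77.71 CPM in MPTP and 58.03 to 72.73 CPM in saline, with none at 0 in all libraries. Of them 11 were above 0 and 7 below, with a median log2 fold change of 0.22 and 0 called. The smallest p was that of the phagocyte lysosomal protein Cd68, at 1.88 ± 0.573 CPM under MPTP and 0.455 ± 0.147 CPM under saline (SD, n = 4 per group; log2 fold change 2.04, edgeR adjusted p = 0.169), followed by the complement gene C1qc (1.05, adjusted p = 0.487). P2ry12, a microglial receptor, held 19.4 to 22.6 CPM under MPTP and 17.5 to 24.9 CPM in saline. The list of cathepsins outside the rule held 13 genes, of which 3 were tested and 5 had no count in any library. Ctss, typical of microglia, led them at 4.32 ± 0.790 CPM under MPTP and 2.91 ± 1.44 CPM under saline (SD, n = 4 per group; adjusted p = 0.611), and Ctse had a log2 fold change of -0.06. Endothelial and mural markers had 6 of 14 above 0 (median -0.04), with 0 called, led by Ly6c1 (log2 fold change 1.17) and Cspg4 (0.65). The summed microglia list lay below Ctsb or Ctsd alone in CPM, and the part of microglial RNA in their differences was not tested.

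**Figure D4:**
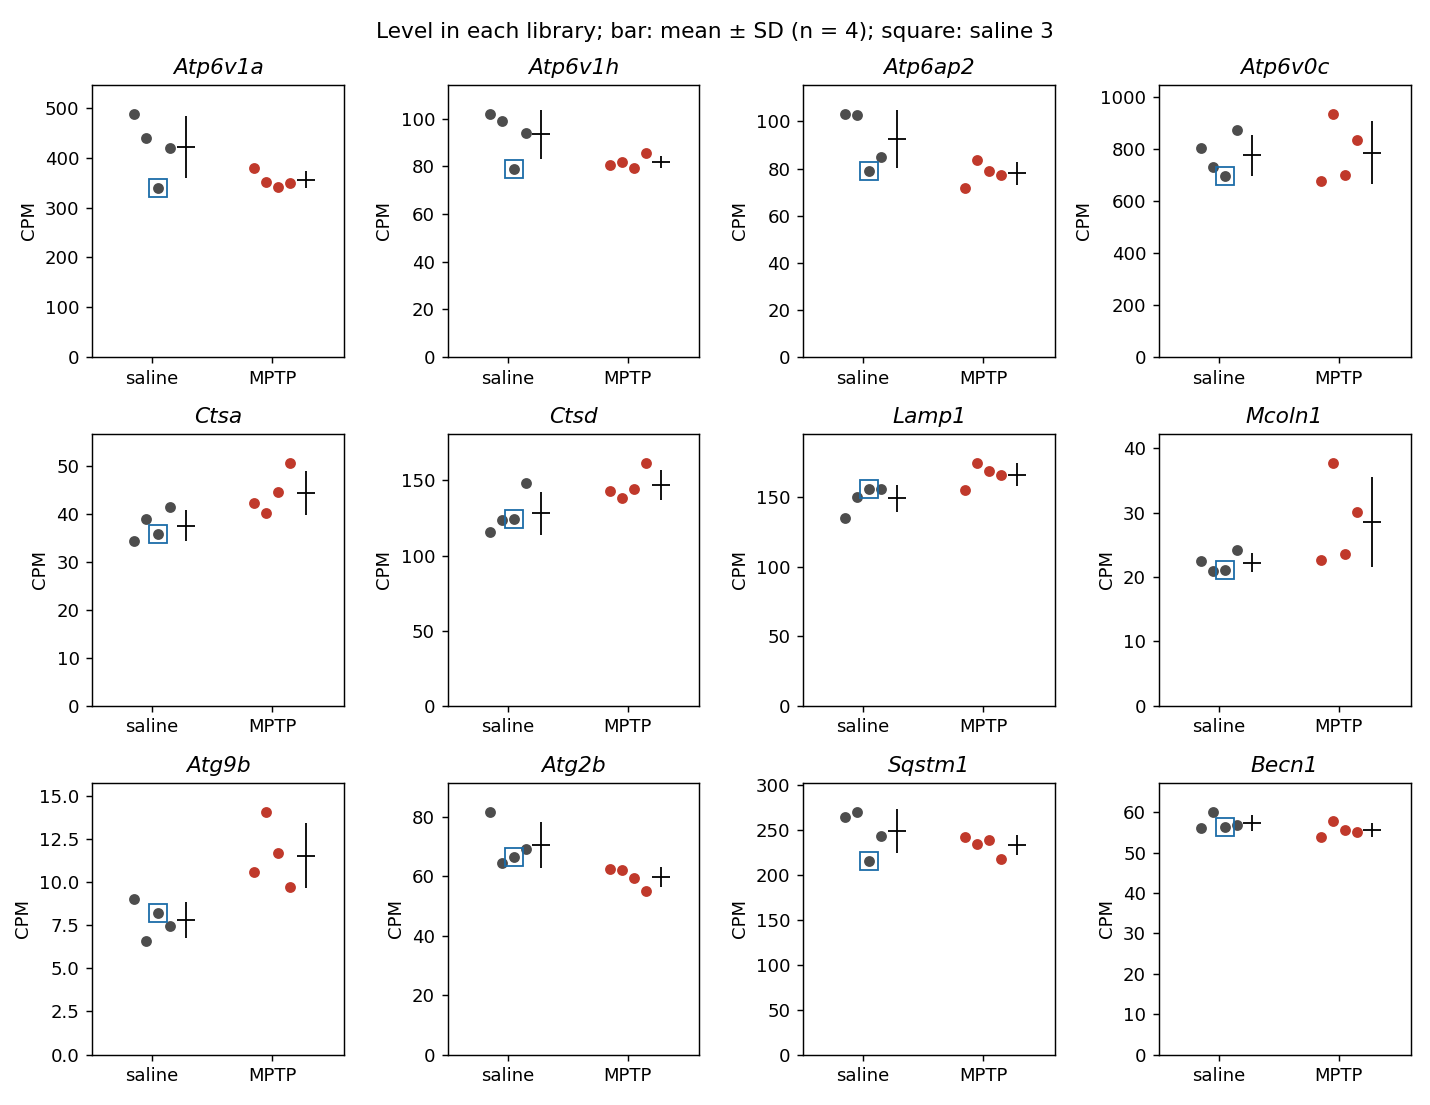
Level in CPM of 12 genes in each saline (grey) and MPTP (red) library, with the mean and SD of 4 as a black bar and saline 3 in a blue square. Saline 3 lies with MPTP in Atp6v1a, Atp6v1h, Atp6ap2 and Sqstm1 and with saline in Ctsa, Ctsd, Mcoln1, Atg9b and Atg2b.

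Lysosomal enzymes and membrane proteins outside the rule were more often above than below 0, where 50.1% of all genes lay above 0. Of 38 tested hydrolases and cofactors, 29 were above 0 and 9 below (median log2 fold change 0.06, 0 called). An unadjusted p under 0.05 was reached by 7 higher and 0 lower, where 4.28% of all genes were higher and 4.5% lower. Groups did not overlap for 4 higher and 0 lower, where 2.04% of all genes were higher and 2.14% lower. The summed level of the 39 listed genes was 2429 to 2626 CPM in MPTP and 2290 to 2383 CPM in saline. Gaa, the lysosomal alpha-glucosidase, had the smallest p of this list, at 330.1 ± 29.8 CPM under MPTP and 261.3 ± 24.05 CPM under saline (SD, n = 4 per group), with no overlap and a log2 fold change of 0.34 (edgeR adjusted p = 0.355). The heparan sulfatase gene Sgsh had 0.93 (adjusted p = 0.428) at 3.37 CPM in MPTP. Of 31 membrane and transport genes, 23 were above 0 (median 0.12, 0 called), led by Cd68 and by the chloride-proton exchanger gene Clcn7 (0.30, adjusted p = 0.525). Without saline 3 edgeR called 2 hydrolase or cofactor genes higher, Sgsh (log2 fold change 1.26, adjusted p = 0.0463) and Gm2a (adjusted p = 0.0488), and 1 membrane gene, Cd68 (2.25, adjusted p = 0.0274).

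Among the lysosomal membrane and regulatory members, Mcoln1, which codes for the lysosomal calcium channel TRPML1, had the highest fold change. It was at 22.6, 37.7, 23.6 and 30.1 CPM in MPTP 1 to 4 and at 22.5, 21.0, 21.1 and 24.2 CPM in saline 1 to 4. MPTP 2 and MPTP 4 were above all saline libraries, and MPTP 1 and MPTP 3 were within the saline range. The log2 fold change was 0.36 (SE 0.14, edgeR adjusted p = 0.496). Without MPTP 2 it was 0.195. Mcoln1 lies on chromosome 8 (3500457 to 3515232, plus strand).

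Lamp1, a main glycoprotein of the lysosomal membrane, was at 155, 175, 169 and 166 CPM in MPTP 1 to 4 and at 135, 151, 156 and 156 CPM in saline 1 to 4. Only MPTP 1 lay within the saline range. For Lamp1 the log2 fold change was 0.15 (SE 0.08, edgeR adjusted p = 0.606). Lamp2, its partner that also serves chaperone-mediated autophagy, had the opposite sign, -0.14 (adjusted p = 0.703), with 48.9 to 62.1 CPM in MPTP and 57.7 to 63.4 CPM in saline. Tfeb, the transcription factor that drives lysosomal genes, was low, at 4.87 ± 0.741 CPM under MPTP and 4.78 ± 1.29 CPM under saline (SD, n = 4 per group; log2 fold change 0.03, 95% interval -0.46 to 0.51). Its relative Tfe3 was at 44.6 ± 2.40 and 40.4 ± 3.15 CPM (SD, n = 4 per group; 0.15, adjusted p = 0.678). The list of mTORC1 and TFEB control genes had 6 of 22 above 0 (median -0.05, 0 called), with Mtor at -0.18.

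TFEB and its relatives bind an E-box, CACGTG, best known at lysosomal genes in a longer palindrome, so the members' promoters were searched for it. RefSeq promoter windows (GRCm38.p6, 250 bases before to 50 after a gene start) matched 46 of the 58 members. CACGTG (a palindrome, so the same on both strands) occurred in the windows of 14 of them (30.4%), beside 9.36% of the 16524 genes of the table with a window. The 8-letter form TCACGTGA, which contains CACGTG, occurred in 7 (15.2%, beside 1.51%), and the 10-letter form GTCACGTGAC in 0 (beside 0.514%). The 14 were Atg3, Atg5, Atg7, Atg14, Atp6v0b, Atp6v0d1, Atp6v0e, Atp6v1a, Ctsa, Ctsd, Ctsf, Ctsl, Lamp1 and Mcoln1. A gene counted if any of its windows held the letters, so a gene with more RefSeq starts had more chances to match. The stretch around the Atg7 match begins 27841 bases after the GENCODE start of the gene. That of Ctsl begins 122 bases after it and holds 15 exon bases. A match is a description of these letters and not a binding site. The stretches that follow were chosen after the values were seen, to show members above 0 (Lamp1, Mcoln1, Ctsd, Ctsa, Ctsf) and below 0 (Atp6v1a, Atg3, Atg5). Each holds a match that lies before a RefSeq start; Ctsa, Ctsd, Mcoln1 and Atg3 have a further match that is not printed. They run 5′ to 3′ on the gene's strand, with CACGTG or TCACGTGA in capitals.
Lamp1: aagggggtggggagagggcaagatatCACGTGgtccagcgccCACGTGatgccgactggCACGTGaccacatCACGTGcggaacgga
Mcoln1: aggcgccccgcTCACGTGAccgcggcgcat
Ctsd: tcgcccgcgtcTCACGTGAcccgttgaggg
Ctsa: tgagcaaactgTCACGTGAtgcag
Ctsf: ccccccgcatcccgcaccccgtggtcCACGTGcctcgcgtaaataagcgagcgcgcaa
Atp6v1a: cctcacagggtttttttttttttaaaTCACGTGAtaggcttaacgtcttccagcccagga
Atg3: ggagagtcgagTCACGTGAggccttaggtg
Atg5: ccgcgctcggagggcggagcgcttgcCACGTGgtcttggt

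The Lamp1 stretch (chr8:13159074-13159160, plus strand) holds 4 copies of CACGTG and ends at the base before the start of the gene in both RefSeq and GENCODE. The Ctsf stretch is chr19:4855060-4855117 (plus strand), with its match starting 79 bases before the RefSeq start. The Atg3 stretch is chr16:45158746-45158775 (plus strand, 72 bases before) and the Atg5 stretch chr10:44268299-44268338 (plus strand, 14 bases before). These 4 stretches lie outside the gene in GENCODE as well. The other 4 lie before a RefSeq start but inside the longer GENCODE gene. The Mcoln1 stretch (chr8:3500462-3500491, plus strand, match 46 bases before) starts 5 bases after the GENCODE start, wholly in an exon. The Ctsd stretch (chr7:142387908-142387937, minus strand, match 99 bases before) starts 101 bases after the GENCODE start, and the Ctsa stretch (chr2:164833749-164833772, plus strand, match 13 bases before) 876 bases after it, both wholly in exons. The Atp6v1a stretch (chr16:44139358-44139417, minus strand, match 132 bases before) starts 288 bases after the GENCODE start and holds no exon base.

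Members with the E-box lay on both sides of 0. Of the 14 with CACGTG, 8 had a log2 fold change above 0 and 6 below, with a median of 0.07 and 0 called. Ctsa, Ctsd, Ctsf, Lamp1 and Mcoln1 were among those above 0. Atp6v1a, whose stretch carries the 8-letter form, was below 0, as were Atp6v0d1, Atg3 (-0.08) and Atg5 (-0.11).

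The Atg genes of initiation and lipid transfer held the member with the smallest p. Atg9b, a paralog of the scramblase Atg9a that seeds the growing membrane, was at 10.6, 14.1, 11.7 and 9.74 CPM in MPTP 1 to 4 and at 8.99, 6.57, 8.18 and 7.46 CPM in saline 1 to 4. Each MPTP library lay above each saline library. Its log2 fold change was 0.56 (SE 0.16, edgeR adjusted p = 0.392), and 0.59 (adjusted p = 0.0959) without saline 3. With the covariate and all 8 libraries it was 0.45 (SE 0.17, edgeR adjusted p = 0.64). With the covariate and without saline 3 it was 0.09 (SE 0.27, edgeR adjusted p = 0.939). In that last fit, treatment and marker score cannot be told apart. Atg9b lies on chromosome 5 (24384181 to 24392143, minus strand), and 7.53% of its exon bases lie in exons of Nos3 on the other strand.

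Atg2b, a lipid-transfer protein that feeds the growing membrane, was at 62.3, 62.2, 59.2 and 55.1 CPM in MPTP 1 to 4 and at 81.6, 64.5, 66.5 and 69.2 CPM in saline 1 to 4. Each MPTP library lay below each saline library, though MPTP 1 and saline 2 were close. The log2 fold change was -0.24 (SE 0.09, edgeR adjusted p = 0.491), and -0.16 without saline 1. Atg9b and Atg2b were the 2 of 54 tested members whose groups did not overlap, where 4.19% of all tested genes had no overlap (2.04% higher, 2.14% lower). Atg2a, the other lipid-transfer gene, had a log2 fold change of -0.11. Atg13, the adaptor of the ULK kinase complex and the most abundant of the 7 in level per kilobase (38.0 ± 2.76, SD, n = 4, saline), had 0.05 (95% interval -0.12 to 0.22).

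The conjugation genes showed no shared direction, with 5 of 11 above 0, a median log2 fold change of -0.02 and 0 called or with an unadjusted p under 0.05. Atg4d, a protease that trims and releases LC3-type proteins, was at 17.8 ± 2.15 CPM under MPTP and 14.6 ± 1.90 CPM under saline (SD, n = 4 per group; log2 fold change 0.29, edgeR adjusted p = 0.571). Atg4a, another such protease, had 0.53 (adjusted p = 0.701) at 57 to 202 counts per library, and 0.82 without saline 3. GENCODE exons of Kri1 on the other strand cover 23.6% of the exon bases of Atg4d. Atg12, the ubiquitin-like protein that is joined to Atg5, was at 64.1, 75.0, 78.2 and 74.6 CPM in MPTP 1 to 4 and at 83.5, 89.5, 68.3 and 90.7 CPM in saline 1 to 4. Saline 3 was within the MPTP range and the other saline libraries were above it. Its log2 fold change was -0.19 (adjusted p = 0.618). Atg16l2, a relative of the scaffold Atg16l1, had -0.38 (adjusted p = 0.653), and -0.22 without MPTP 4. Atg7, the enzyme that activates both conjugation systems and the most abundant of the 11 per kilobase (54.8 ± 11.7 in saline, SD, n = 4), had -0.02.

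Becn1 was among the most evenly measured members, whereas Sqstm1 depended on saline 3. Becn1, the Beclin 1 scaffold of the lipid kinase that starts autophagy, was at 53.9, 57.9, 55.5 and 55.2 CPM in MPTP 1 to 4 and at 56.1, 60.1, 56.4 and 56.8 CPM in saline 1 to 4. The groups overlapped, and the 95% interval of the log2 fold change was -0.21 to 0.13. GENCODE exons of Cntd1 on the other strand cover 55.1% of the exon bases of Becn1, and those of Mrnip on the other strand 20.5% of Sqstm1. Sqstm1, the p62 cargo receptor, had 234 ± 11.2 CPM under MPTP and 249 ± 24.7 CPM under saline (SD, n = 4 per group), a log2 fold change of -0.09 (95% interval -0.27 to 0.10). Sqstm1 was at 243.0, 235.2, 239.6 and 217.7 CPM in MPTP 1 to 4 and at 264.7, 270.7, 216.1 and 243.9 CPM in saline 1 to 4. Saline 3 was the lowest of all 8 libraries, and each other saline library lay above each MPTP library. MPTP 1 and saline 4 were close. Without saline 3 its groups did not overlap, as in 14.7% of all genes (7.19% higher, 7.55% lower). The log2 fold change was then -0.15 (SE 0.08, edgeR adjusted p = 0.339).

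The wider autophagy lists gave no call either. LC3 and GABARAP genes, which code for the proteins that coat the autophagosome, had 1 of 5 above 0 (median -0.03), with Gabarapl2 at -0.18 (adjusted p = 0.571) and Gabarap at -0.08. Of 14 tested genes of the initiation and lipid kinase complexes, 8 were above 0 (median 0.01), with Rb1cc1, the FIP200 scaffold, at -0.25 (adjusted p = 0.492) and Wdr45 at 0.19. Of 11 receptors, 3 were above 0 (median -0.11). Among them Optn, a mitophagy receptor, was lower in each MPTP library than in each saline library (16.2 ± 0.767 and 19.5 ± 1.97 CPM, SD, n = 4 per group; -0.27, adjusted p = 0.518), and the mitochondrial receptor Bnip3 had -0.34 (adjusted p = 0.448). Of 15 fusion genes 5 were above 0 (median -0.05), with Plekhm1, a tether of lysosomes to autophagosomes, at 0.25 (adjusted p = 0.449) and Rilp at -0.62.

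Without saline 3 more members reached an unadjusted p under 0.05. Of the 54 members, 27 were above 0 and 27 below, where 51.2% of all genes were above and 48.8% below, and 15 had an unadjusted p under 0.05 (6 higher, 9 lower), where 16.9% of all tested genes did (8.68% higher, 8.25% lower). Of those 9 lower members, 6 were V1 subunits. All 18 dopaminergic markers were also below 0 without saline 3, and 10 of them had an unadjusted p under 0.05. Treatment and marker content cannot be told apart in that split. The plot of fold changes with and without saline 3 has the V1 genes below the line of equal values, that is, further from 0 without that library, except the low gene Atp6v1c2, which changed sign.

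**Figure D5:**
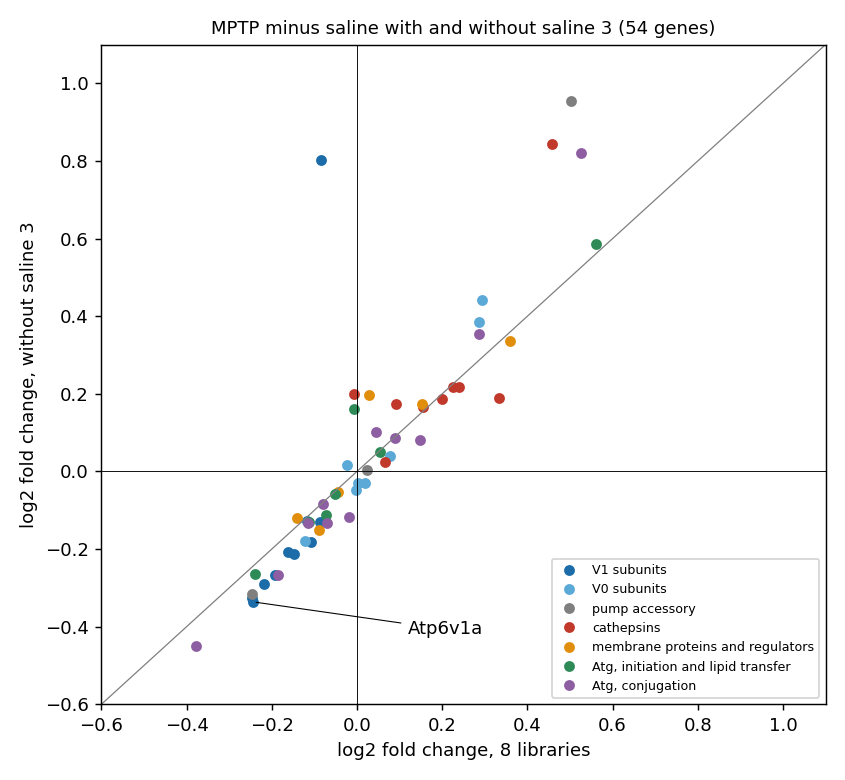
Log2 fold change of the 54 tested genes with all 8 libraries (x) and without saline 3 (y), coloured by role; the grey line marks equal values. Atp6v1a (-0.24 and -0.34) is the gene called without saline 3.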

How the data were processed

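The values deposited by the authors are raw read counts for each gene, in 1 table whose 8 library columns were matched to samples by title. TopHat2 2.0.8 and mm10 are listed in the submitters' processing notes. The counting tool, its annotation and its strand setting were not given in the sources used here. Per the labels' protocols, nanogram amounts of RNA were amplified and sequenced as single-end reads without molecular identifiers, and 2 libraries shared a sequencing run. Of the symbols, 27 turned into dates were restored by Entrez identifier, and 90 genes without a symbol (0.0505% to 0.056% of counts) were kept under their identifier. No pair of libraries of a group agreed within sampling noise.

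Counts were analysed with edgeR 4.0.16 in R 4.3.3: TMM scaling, filterByExpr, robust quasi-likelihood F-test of MPTP against saline, adjusted over all genes tested. SE were derived from F as |log2 fold change| over its square root. CPM use the TMM-scaled library size. The code was tested on simulated counts. Exon lengths and positions are from GENCODE vM21, promoters from RefSeq. The non-neuronal score is the mean of the astrocyte, oligodendrocyte, microglia and endothelial list scores (mean log2 CPM, prior count 2). Alternatives were DESeq2 1.42.0, other scalings and filters, a replicate block, that score as a covariate and leaving out each library; the covariate without saline 3 was added after seeing the data.

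Members and lists were chosen with earlier results of these data known. Named were 10 fixed members, in each role the 4 with the smallest p, the highest and lowest per kilobase, any called and any without overlap, and the 2 of smallest p in each other list; other genes named were chosen after their values were seen.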

Additional observations from a re-analysis of the deposited data

How the results depend on the processing

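No alternative with all 8 libraries called a member, and the lowest adjusted p of a member was then between 0.121 (DESeq2) and 0.661 (edgeR with the replicate block). Leaving out 1 library gave 0 to 1 members lower (Atp6v1a, without saline 3) and 0 members higher. The median log2 fold change over the members ranged from -0.061 (without MPTP 2) to 0.015 (without MPTP 3), and was -0.087 with the covariate and without saline 3.

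Over all genes, the 12 higher and 5 lower calls became 25 and 28 with DESeq2, and 7 genes were called higher with a mean CPM of at least 5. Leaving out 1 library gave 8 to 138 higher and 0 to 159 lower calls, the highest counts being those without saline 3. Without MPTP 4 or saline 1, 0 genes were called lower, without MPTP 2 it was 1, without MPTP 3 it was 2, and without saline 2 or saline 4 it was 3. The covariate without saline 3 gave 24 lower calls. The replicate numbers did not pair the libraries: the correlations of same-numbered deviations were -0.024, -0.116, -0.028 and 0.039. With the replicate block edgeR called 10 genes higher and 4 lower, and 7 members had an unadjusted p under 0.05.

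Of the 33 named members tested, 24 kept their sign in each of the 16 alternatives that gave them a value, and the others were not called in any. A mean CPM of at least 5 gave no value for Atg4a, Atp6ap1l, Atp6v0a4, Ctsc and Tfeb. Leaving out 1 library moved the log2 fold change of Atg7 between -0.117 and 0.097 (0.039 without MPTP 3, 0.052 without saline 1), that of Atp6ap1 between -0.069 and 0.073 (-0.019 without saline 2), of Atp6v0a4 between -0.000 and 0.493, of Atp6v0b between -0.007 and 0.145, of Atp6v0c between -0.074 and 0.086 (-0.008 without MPTP 4, -0.007 without saline 2, -0.029 without saline 3), of Ctsc between -0.292 and 0.845, and of Tfeb between -0.094 and 0.196 (-0.009 without MPTP 1, -0.058 without MPTP 2, -0.047 without saline 1). Atg7 was 0.002 with the replicate block and 0.072 with the covariate, and Tfeb was -0.142 with the covariate. With the covariate and without saline 3, values were -0.199 for Atp6ap1, -0.547 for Atp6v0a4, -0.089 for Atp6v0b, -0.154 for Atp6v0c, -0.008 for Ctsc, -0.085 for Tfeb, 0.076 for Atp6v1c1 and 0.114 for Atp6v1g2. Among members that kept their sign, that fit gave 0.088 for Atg9b, 0.122 for Mcoln1, 0.134 for Ctsf, 0.257 for Lamp1, 0.416 for Ctsd, 0.524 for Ctsa, 0.528 for Atg4d, -0.407 for Atp6ap2 and -0.549 for Atg2b. The covariate with all 8 libraries gave -0.075 for Atg12, -0.078 for Atp6v1c1, -0.116 for Atp6v1h, -0.15 for Atp6v1g1 and 0.175 for Atp6v0e. The cause of these changes was not tested. Depth limits Atp6v1c2, Atp6ap1l, Ctsc, Ctsh and the untested subunits.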
